A study of Mus musculus with 9 samples.

Results

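The genes described here are 46 mouse genes that act in mitosis: Cdk1 with its cyclins and regulators (8 genes), mitotic kinases (6), kinesin motors (6), kinetochore and centromere proteins (8), the chromosomal passenger complex (4), anaphase regulators (4), spindle and cytokinesis proteins (7), and 3 genes of chromosome structure and transcription. They were taken by name from the 23700 entries of each gene table, from a list drawn up with earlier results of these data known. All 46 were found, and all 46 passed the filter on low values that left 10004 genes for testing. The tables hold FPKM, the fragments counted on a gene divided by the length of its transcripts and scaled to the library, so levels may be compared between genes.

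RNA came from germinal center B cells of mouse spleen, in 9 libraries of 3 groups. C57BL/6 recipients were given a 1:1 mixture of B cells that were either Foxo1(+/+) and CD45.1/1 or Foxo1(f/f) and CD45.1/2, and both kinds carried B1-8hi(KI/+) and ERT2cre(KI/+). B1-8hi is a knocked-in antibody heavy chain that binds the hapten NP, and ERT2cre is a recombinase that tamoxifen activates and that deletes the floxed part of Foxo1. The mice were immunized with NP-CGG in alum on day 0, received oral tamoxifen from day 7 to day 9, and their cells were sorted on day 12. Every group therefore shares the knocked-in receptor, the recombinase and tamoxifen. Sorted cells were B220+ NP+ GL7+ and CD38-negative. The LZ group (3 libraries) holds Foxo1(+/+) cells in the light zone gate, CD86 high and CXCR4 low. The DZ group (3 libraries) holds Foxo1(+/+) cells in the dark zone gate, CD86 low and CXCR4 high. The Foxo1-deficient group (3 libraries) holds Foxo1(f/f) cells of the entire germinal center gate, not split by zone. Because genotype and zone gate change together, their parts in a difference from either zone cannot be told apart. The labels list the Foxo1(f/f) cells as CD45.1/2 but their gate as CD45.2-negative, which was not settled here. The sources used here do not give the age of the animals. Nor do the labels say that replicates are different animals, so a p-value reflects only how far these samples spread, and that spread may be technical.

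Mitosis begins when Cdk1, bound to a B-type cyclin, is switched on by Cdc25 phosphatases. Kinesins and microtubule proteins then build the spindle, kinetochores tie chromosomes to it, Aurora kinase B in the passenger complex corrects faulty attachments, and the anaphase-promoting complex with Cdc20 releases the sister chromatids. In the germinal center, cells selected in the light zone move to the dark zone and divide there, and Foxo1 is a transcription factor known for its part in the dark zone program.

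Mitotic genes commonly carry a CHR element (cell cycle genes homology region) near the transcript start and NF-Y boxes upstream of it, which are bound by the DREAM, B-Myb and FoxM1 assemblies and by NF-Y. The promoters of the 6 genes with the lowest adjusted p for a DZ minus LZ difference are shown first, because all 6 rose in the dark zone and 5 of them share this arrangement. Each sequence runs 5′ to 3′ on the gene's strand over 210 bases, from 180 before to 30 after the RefSeq transcript start (GRCm38.p6). Capitals mark matches, on either strand, to the CHR element (TTTGAA or TTCGAA), the NF-Y box (CCAAT, or ATTGG when it lies on the other strand) or the forkhead core (TAAACA).
Cdc25b: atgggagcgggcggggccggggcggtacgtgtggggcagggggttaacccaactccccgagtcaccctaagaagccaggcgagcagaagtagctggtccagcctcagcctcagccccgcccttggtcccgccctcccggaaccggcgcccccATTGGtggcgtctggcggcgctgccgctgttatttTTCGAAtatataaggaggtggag
Cdc20: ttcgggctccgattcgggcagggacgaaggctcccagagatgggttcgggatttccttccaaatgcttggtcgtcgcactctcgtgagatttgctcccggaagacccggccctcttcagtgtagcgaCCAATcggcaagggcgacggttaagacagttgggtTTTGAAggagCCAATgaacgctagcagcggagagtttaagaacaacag
Nuf2: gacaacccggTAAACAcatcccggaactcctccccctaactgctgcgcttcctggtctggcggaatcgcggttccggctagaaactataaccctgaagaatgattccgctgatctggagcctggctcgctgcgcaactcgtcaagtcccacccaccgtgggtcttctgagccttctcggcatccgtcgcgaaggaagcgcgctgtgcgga
Racgap1: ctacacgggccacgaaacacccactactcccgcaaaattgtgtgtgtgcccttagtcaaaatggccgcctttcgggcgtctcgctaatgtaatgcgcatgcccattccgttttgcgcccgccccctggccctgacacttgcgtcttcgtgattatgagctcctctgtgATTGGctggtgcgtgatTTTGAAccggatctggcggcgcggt
Cenpa: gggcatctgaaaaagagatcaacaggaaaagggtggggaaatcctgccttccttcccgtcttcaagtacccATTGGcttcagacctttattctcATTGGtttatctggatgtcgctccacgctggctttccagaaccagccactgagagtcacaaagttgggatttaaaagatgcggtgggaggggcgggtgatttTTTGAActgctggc
Cdca8: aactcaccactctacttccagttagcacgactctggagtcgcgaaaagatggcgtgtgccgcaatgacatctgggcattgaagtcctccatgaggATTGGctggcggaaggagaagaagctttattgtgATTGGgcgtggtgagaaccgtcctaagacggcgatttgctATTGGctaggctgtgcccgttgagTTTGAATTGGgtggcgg

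The Cdc25b sequence lies at chr2:131186768-131186977 on the plus strand, Cenpa at chr5:30666706-30666915 on the plus strand, and the others are on the minus strand: Cdc20 at chr4:118437314-118437523, Nuf2 at chr1:169531435-169531644, Racgap1 at chr15:99651627-99651836 and Cdca8 at chr4:124936888-124937097. In Cdc25b the NF-Y box stands at position -28 and the CHR element at 8, counted from the transcript start. Racgap1 has the same pair at -12 and 6. Cenpa has NF-Y boxes at -109 and -86 and a CHR element at 17. In Cdca8 there are NF-Y boxes at -85, -51 and -11, then a CHR element at 14 whose end overlaps another NF-Y match at 19. Cdc20 has its CHR element at -18, between NF-Y boxes at -53 and -8. Nuf2 holds neither motif in the printed stretch, only a forkhead core at -170.

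RefSeq windows of 250 bases before to 50 after the start were at hand for 38 of the 46 genes, as 40 windows. A CHR element occurred in 77.5% of these 40 windows, against 19.23% of all 32851 windows in the table. An NF-Y box also occurred in 77.5% of them, against 37.41% of all windows. It was frequent in related lists too, in 61.39% of 101 windows of a wider list of mitosis genes and 58.97% of 39 S phase windows. Both motifs stood together in 70% of the mitosis gene windows and in 7.525% of all windows. A CHR element within 50 bases of the start was found in 70% of the mitosis gene windows and in 5.306% of all. The forkhead core TAAACA, a motif of the family that includes Foxo1 and Foxm1, was no more frequent here (12.5%) than over all windows (13.44%). E2F sites (TTTCGCGC or TTTGGCGC), which are typical of S phase genes, occurred in 2.5% of the mitosis gene windows, 25.64% of 39 windows of S phase genes and 0.8128% of all. Motifs were searched on both strands, and a match describes letters in a window, not a bound site. The 29 genes with a CHR element had a median DZ minus LZ difference of 0.59 on the log2(FPKM + 1) scale, with 8 called higher, and the 9 without had a median of 0.45, with Nuf2 alone called. Values with and without the element overlapped, from -0.07 to 1.79 and from -1.14 to 0.91.

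**Figure D1:**
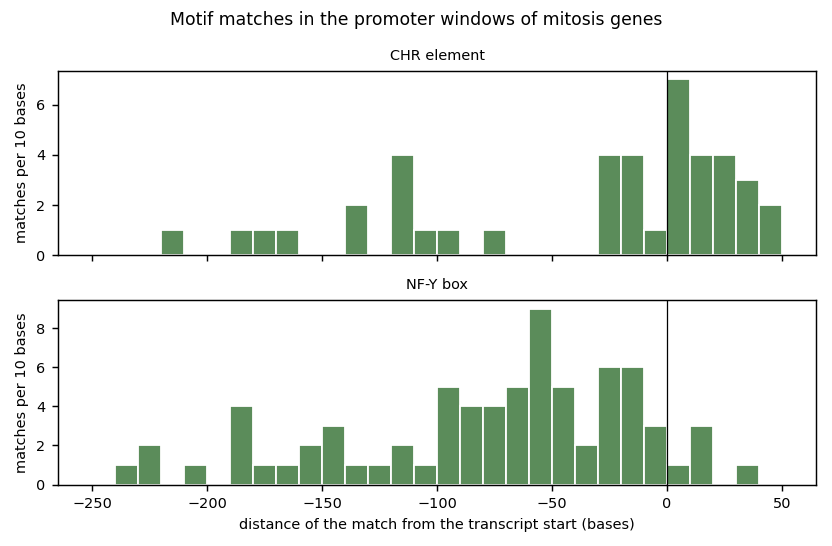
Distance of each CHR element match (top) and NF-Y box match (bottom) from the transcript start, in bases, in the 40 promoter windows of the mitosis genes, with bars giving matches per 10 bases. CHR matches gather around and just after the start, with 70% of windows holding one within 50 bases of it, while NF-Y matches lie mostly upstream.

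The libraries were of similar size, with a relative depth of 0.83 to 1.11 estimated from the deposited confidence intervals, and 11229 to 12495 entries above 0. Total fragments are not stated. On the same rough estimate the 46 genes had a median of 387 fragments in a library, the lowest being 20.8 for Cdc25c, and 7 genes had a library under 100. None of the 46 was at 0 in any library. Foxo1 itself was at 14.8, 18.7 and 22.1 FPKM in LZ, 24.5, 19.5 and 19.1 in DZ and 3.01, 1.79 and 0.808 in the Foxo1-deficient libraries, which fits the labels (log2 difference from LZ -2.82, limma adjusted p = 0.00113). All 10 germinal center B cell markers were above 0 in every library, with summed FPKM of 1985 to 2225 in LZ libraries, 1594 to 1940 in DZ libraries and 2061 to 2470 in the Foxo1-deficient ones. Summed markers of neutrophils, of macrophages and dendritic cells and of erythroid cells were higher in every Foxo1-deficient library than in any zone library. The 9 neutrophil markers summed to 83.1 to 138 in Foxo1-deficient libraries, 0.720 to 0.941 in LZ and 0.389 to 3.02 in DZ. Of these markers, 5 were at 0 in Foxo1-deficient replicate 1, 3 in replicate 2 and 5 in replicate 3. In each zone library 7 or 8 were at 0. The granule genes Mpo and Elane were at 0 in all 9 libraries. For the 11 macrophage and dendritic cell markers the sums were 2.14 to 6.63, 0.655 to 2.79 and 90.3 to 216, with Cd14 at 0 throughout. The 8 erythroid markers summed to 21.9 to 47.1, 13.2 to 25.4 and 172 to 556, and the 6 plasma cell markers to 127 to 151, 189 to 291 and 233 to 355. The 9 T cell markers summed to 27.1 to 31.3, 11.7 to 20.1 and 14.9 to 24.8, with Cd3e, Cd3g and Cd4 at 0 throughout, and the 10 stromal markers to 21.2 to 32.5, 21.3 to 30.9 and 17.8 to 34.8. The part of these other cells in the differences from the Foxo1-deficient group was not tested.

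Differences between groups are given on the log2(FPKM + 1) scale, the group named first minus the second, with the standard error (SE) from limma. A gene is called higher or lower where its limma p, adjusted over all 10004 genes, is under 0.05, and only then is it said to have risen or fallen. The comparisons share libraries, so each is given with its own values.

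Most mitosis genes had higher levels in the dark zone than in the light zone. Of the 46, 10 rose and none fell, beside 0.56% of all tested genes called higher and 1.38% called lower. At an unadjusted p under 0.05, 28 were higher and 1 lower (all genes 3.72% and 11.7%). In 29 of the 46 every DZ library lay above every LZ library, against 5.16% of all genes, and in none did every DZ library lie below (17.1% of all genes). The difference was positive for 43 of the 46, against 34.8% of all genes, and negative for 3 (65%). Its median was 0.53, where the median of all tested genes was -0.15. Summed over the 46, FPKM was 1069 ± 85.8 (SD, n = 3) in LZ, 1583 ± 128 in DZ and, without a zone gate, 1307 ± 67.6 in Foxo1-deficient cells. In bulk RNA, more cells in mitosis and more of these transcripts in each cell cannot be told apart. The number of calls changed when single libraries were left out. It was 0 without DZ replicate 1 or DZ replicate 2 and 1 of the 10 without LZ replicate 1 (Cenpa). It was 2 without LZ replicate 3, 3 without LZ replicate 2, 4 without DZ replicate 3 and 6 without Foxo1-deficient replicate 1. Over all tested genes 194 calls, higher and lower together, became 86, 74 and 77 without LZ replicate 1, 2 and 3. They became 72, 78 and 76 without DZ replicate 1, 2 and 3, and 143 without Foxo1-deficient replicate 1. The median of the 46 genes stayed between 0.44 and 0.55 when any 1 library was left out.

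**Figure D2:**
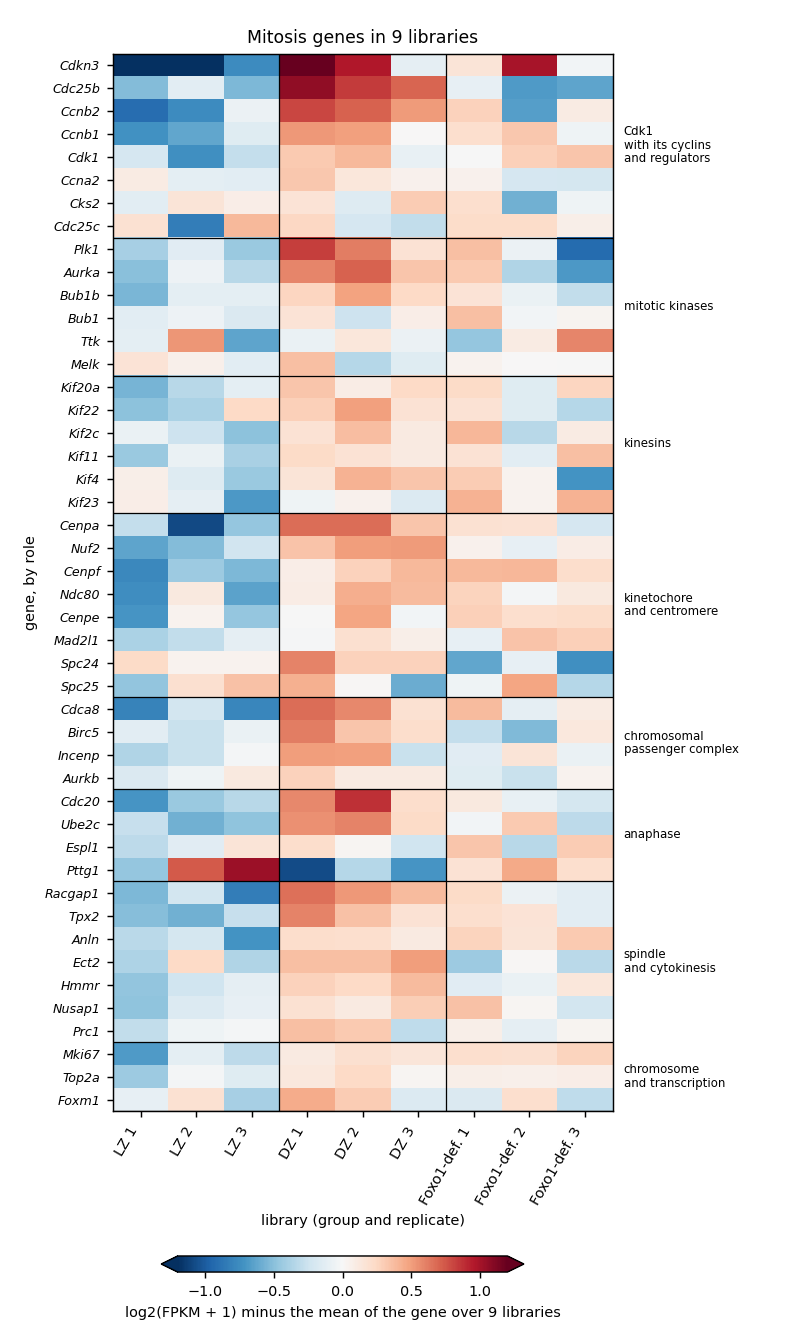
Level of each of the 46 genes (rows, grouped by role) in the 9 libraries (columns), as log2(FPKM + 1) minus the gene's mean over the libraries, red above and blue below that mean; values past the ends of the colour scale take the end colour. DZ columns are red for most genes, LZ columns blue, and the Foxo1-deficient columns lie closer to the mean, with Pttg1 blue in the DZ columns.

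Among the regulators of mitotic entry, Cdc25b, Cdkn3 and Ccnb2 rose in the dark zone, 3 of the 8 genes of this group. Cdc25b (chr2:131012684-131024247, mm9), a phosphatase that switches on cyclin-dependent kinases, was at 24.3, 32.3 and 24.0 FPKM in LZ, 75.1, 64.0 and 57.8 in DZ and 33.0, 21.6 and 22.4 in Foxo1-deficient cells. The DZ libraries stood clear of both other groups, which overlapped each other. Its DZ minus LZ difference was 1.26 (SE 0.21, limma adjusted p = 0.0129), called in 13 of the 17 alternative analyses. Cdkn3 (chr14:47380216-47391200, mm9), a phosphatase that acts on Cdk1 and Cdk2, was at 6.78, 7.17 and 10.2 in LZ, 44.4, 35.8 and 16.5 in DZ and 20.0, 36.3 and 17.4 in Foxo1-deficient cells. All DZ and Foxo1-deficient libraries exceeded the highest LZ library, and DZ replicate 3 was far below the other DZ libraries. Cdkn3 had the largest difference of the 46 genes, 1.79 (SE 0.37, limma adjusted p = 0.0356). Cyclin B2, Ccnb2 (chr9:70255496-70269361, mm9), a partner of Cdk1, was at 18.7, 21.1 and 34.4 in LZ, 63.9, 59.9 and 51.9 in DZ and 44.2, 22.6 and 38.8 in Foxo1-deficient cells. The DZ libraries again lay above all others, while Foxo1-deficient replicate 2 lay within the LZ range and replicates 1 and 3 above it. Its difference was 1.25 (SE 0.27, limma adjusted p = 0.0455), and it was called in 7 of the 17 alternatives.

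The other 5 genes of this group did not pass. Cyclin B1, Ccnb1, was at 15.1, 16.4 and 23.2 FPKM in LZ, 37.3, 36.5 and 25.8 in DZ and 29.8, 32.5 and 24.8 in Foxo1-deficient cells, with no overlap between LZ and either other group (DZ minus LZ 0.84, limma adjusted p = 0.0919). Cdk1 was at 14.0, 9.27 and 13.1 in LZ, 20.3, 21.5 and 15.2 in DZ and 16.1, 19.9 and 20.6 in Foxo1-deficient cells, likewise above LZ in every library of both other groups (0.61, limma adjusted p = 0.214). The 3 remaining genes showed smaller differences between the zones. Cyclin A2, Ccna2, which acts from S phase into early mitosis, differed by 0.22 (SE 0.16). Cks2, a small Cdk-binding protein and the most abundant of the group at a mean of 95.7 FPKM over all libraries, differed by 0.07 (SE 0.20). Cdc25c, the least abundant of the 46 at 4.25 FPKM, differed by 0.01 (SE 0.34). Whether the related phosphatases Cdc25b and Cdc25c differ in their zone difference was not tested.

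None of the 6 genes grouped as mitotic kinases passed the test between the zones, and their median DZ minus LZ difference was 0.35. Polo-like kinase 1, Plk1, was at 15.7, 19.1 and 15.2 FPKM in LZ, 38.1, 32.8 and 23.8 in DZ and 27.2, 20.0 and 10.6 in Foxo1-deficient cells. Every DZ library exceeded every LZ library, and the Foxo1-deficient libraries ranged from above LZ to below it (DZ minus LZ 0.86, SE 0.30, limma adjusted p = 0.2). Aurka, the Aurora kinase of the spindle poles, was at 8.46, 11.8 and 9.65 in LZ, 19.0, 20.8 and 15.9 in DZ and 15.7, 9.45 and 7.30 in Foxo1-deficient cells (0.84, SE 0.27, limma adjusted p = 0.166). Bub1b, which encodes the checkpoint protein BubR1 and was the most abundant of these 6 genes, also had no overlap between the zones, with a difference of 0.59 (SE 0.19). The checkpoint kinases Bub1 (0.12, SE 0.21) and Ttk (0.07, SE 0.34) and the kinase Melk (-0.08, SE 0.25) had differences smaller than their standard errors. In 4 of the 6 kinase genes the Foxo1-deficient mean lay between the zones and nearer LZ, and in Bub1 and Ttk above both.

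The 6 kinesin genes all had positive DZ minus LZ differences, from 0.19 to 0.55, and none passed. Kif20a, a motor of the central spindle, had the largest, at 11.3, 13.4 and 15.7 FPKM in LZ, 21.8, 18.3 and 20.3 in DZ and 20.3, 15.4 and 20.7 in Foxo1-deficient cells (0.55, SE 0.20, limma adjusted p = 0.214). Every DZ library lay above every LZ library for it, for Kif11, for Kif2c and for Kif4. Kif11, which drives the spindle poles apart and was the most abundant kinesin gene, was at 21.3, 27.6 and 22.1 in LZ, 34.5, 33.3 and 31.7 in DZ and 33.2, 26.8 and 38.0 in Foxo1-deficient cells (0.48, SE 0.18). Kif2c, a microtubule depolymerase at the centromere, differed by 0.49 (SE 0.23), the chromosome-bound motor Kif22 by 0.53 (SE 0.23) and Kif4, another chromosome-bound motor, by 0.48 (SE 0.27). Kif23, the motor of the centralspindlin complex, was at 27.4, 23.9 and 15.7 in LZ, 24.9, 26.9 and 23.1 in DZ and 34.9, 26.8 and 34.9 in Foxo1-deficient cells. Its zones overlapped (0.19, SE 0.22), and its Foxo1-deficient mean was above both.

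Among kinetochore and centromere genes, Cenpa and Nuf2 rose in the dark zone, 2 of 8. Cenpa (chr5:30969275-30977199, mm9), the histone H3 variant that marks centromeres, was at 19.9, 11.1 and 17.5 FPKM in LZ, 39.5, 39.7 and 31.1 in DZ and 27.9, 27.8 and 21.1 in Foxo1-deficient cells. The 3 groups did not overlap, with the Foxo1-deficient libraries between the zones. Its DZ minus LZ difference was 1.17 (SE 0.23, limma adjusted p = 0.0312). Nuf2 (chr1:171428065-171461595, mm9), a subunit of the microtubule-binding Ndc80 complex, was at 15.0, 16.4 and 20.3 in LZ, 30.5, 34.4 and 34.4 in DZ and 24.8, 22.2 and 25.4 in Foxo1-deficient cells, again with 3 separate ranges and the Foxo1-deficient libraries in the middle. It differed by 0.91 (SE 0.17, limma adjusted p = 0.0267).

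Of the 4 subunits of the Ndc80 complex, Nuf2 alone passed between the zones, and differences among the subunits were not tested. Ndc80 was at 9.73, 18.5 and 10.5 FPKM in LZ, 18.2, 23.4 and 22.4 in DZ and 20.6, 16.8 and 18.6 in Foxo1-deficient cells, so that a single LZ library reached the DZ range (DZ minus LZ 0.73, SE 0.24, limma adjusted p = 0.179). Spc25 was at 11.6, 19.0 and 21.4 in LZ, 22.7, 16.7 and 10.6 in DZ and 16.0, 23.5 and 12.9 in Foxo1-deficient cells, wide and overlapping in each group (-0.07, SE 0.32). Spc24 (chr9:21559886-21564730, mm9) was at 26.9, 23.4 and 23.4 in LZ, 34.8, 27.8 and 27.7 in DZ and 14.4, 21.1 and 13.2 in Foxo1-deficient cells. Its zones differed by 0.28 (SE 0.21), but all Foxo1-deficient libraries were below all 6 zone libraries, the only one of the 46 genes of which this held.

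Of the other kinetochore genes, Cenpf, a large protein of the outer kinetochore, was at 4.77, 6.31 and 5.79 FPKM in LZ, 9.42, 11.0 and 11.9 in DZ and 11.9, 12.0 and 10.4 in Foxo1-deficient cells. Both other groups were above LZ in every library and overlapped each other (DZ minus LZ 0.83, limma adjusted p = 0.0859, and Foxo1-deficient minus LZ 0.91, limma adjusted p = 0.0629). Cenpe, the kinetochore motor, differed between the zones by 0.52 (SE 0.23). Mad2l1, the checkpoint protein Mad2 and the most abundant gene of the group, differed by 0.34 (SE 0.17), with no overlap between the zones.

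Within the chromosomal passenger complex Cdca8 (chr4:124595709-124614161, mm9), which encodes Borealin, rose in the dark zone. It was at 21.2, 32.3 and 21.4 FPKM in LZ, 60.4, 56.8 and 42.8 in DZ and 49.4, 34.9 and 40.4 in Foxo1-deficient cells, so that both other groups were above LZ in every library. The DZ minus LZ difference was 1.08 (SE 0.22, limma adjusted p = 0.0343). Its partners had smaller differences and did not pass. Survivin, Birc5, the most abundant of the complex, was at 48.4, 43.8 and 50.01 in LZ, 81.7, 66.9 and 61.4 in DZ and 43.3, 36.3 and 57.9 in Foxo1-deficient cells, with DZ above both other groups (0.54, SE 0.19, limma adjusted p = 0.198). Incenp, the scaffold, differed by 0.46 (SE 0.22) and Aurkb, the kinase itself, by 0.20 (SE 0.16), with overlapping zones in both.

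Of the 4 anaphase genes 2 rose and none fell. Cdc20 and Ube2c, the activator and a ubiquitin-conjugating enzyme of the anaphase-promoting complex, rose in the dark zone. Cdc20 (chr4:118105506-118109948, mm9) was at 22.4, 27.1 and 29.3 FPKM in LZ, 55.9, 69.3 and 43.3 in DZ and 40.5, 34.9 and 32.0 in Foxo1-deficient cells, 3 ranges without overlap and with the Foxo1-deficient libraries in the middle (DZ minus LZ 1.05, SE 0.20, limma adjusted p = 0.0267). Ube2c (chr2:164595429-164598402, mm9) was at 40.6, 32.9 and 35.2 in LZ, 72.7, 75.1 and 58.1 in DZ and 48.5, 61.6 and 39.7 in Foxo1-deficient cells, where the Foxo1-deficient libraries overlapped both zones (0.90, SE 0.19, limma adjusted p = 0.0409). Espl1, which encodes separase, the protease that cuts cohesin, differed by 0.10 (SE 0.26). Pttg1, which encodes securin, the inhibitor of separase, had a negative point estimate. It was at 9.10, 22.2 and 27.4 in LZ, 5.65, 10.0 and 7.55 in DZ and 14.7, 18.1 and 15.1 in Foxo1-deficient cells, with LZ replicate 1 inside the DZ range and the Foxo1-deficient libraries above every DZ library. Neither its DZ minus LZ difference of -1.14 (SE 0.35, limma adjusted p = 0.152) nor its Foxo1-deficient minus DZ difference of 0.98 (SE 0.35, limma adjusted p = 0.193) passed. Without LZ replicate 1 Pttg1 was called lower in DZ. It rests on few fragments, an estimated 23.4 in its lowest library.

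Of 7 spindle and cytokinesis genes, Racgap1 and Tpx2 rose in the dark zone, and in 6 the zones did not overlap. Racgap1 (chr15:99450928-99482087, mm9), the GTPase-activating subunit of centralspindlin, was at 15.8, 19.9 and 12.7 FPKM in LZ, 37.6, 33.8 and 30.6 in DZ and 27.5, 22.2 and 21.3 in Foxo1-deficient cells, in 3 separate ranges (DZ minus LZ 1.05, SE 0.20, limma adjusted p = 0.0283). Tpx2 (chr2:152673700-152721057, mm9), which activates Aurora kinase A on the spindle, was at 16.5, 15.7 and 19.6 in LZ, 36.6, 30.8 and 27.1 in DZ and 27.5, 27.0 and 21.9 in Foxo1-deficient cells (0.83, SE 0.19, limma adjusted p = 0.0493). Tpx2 was called in only 5 of the 17 alternatives, the fewest of the 10. Anln, a contractile ring protein, differed by 0.59 (SE 0.25), the spindle protein Hmmr by 0.57 (SE 0.19), Ect2, which activates RhoA at the cleavage site, by 0.57 (SE 0.24) and Nusap1, which bundles spindle microtubules and was the most abundant of the group, by 0.45 (SE 0.19). Prc1, the cross-linker of the central spindle, had overlapping zones and a difference of 0.24 (SE 0.21).

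The 3 chromosome and transcription genes did not pass. Top2a, topoisomerase II alpha, was at 81.9, 109 and 100.4 FPKM in LZ, 121, 131 and 113 in DZ and 117, 116 and 117 in Foxo1-deficient cells (DZ minus LZ 0.33, SE 0.14). Mki67, the proliferation antigen Ki-67, was at 66.2, 98.0 and 85.7 in LZ, 115, 122 and 118 in DZ and 123, 122 and 129 in Foxo1-deficient cells (0.52, SE 0.15, limma adjusted p = 0.129). They were the most abundant of the 46 genes, and in both every DZ and Foxo1-deficient library was above every LZ library. Foxm1, the forkhead factor that activates many mitotic genes, was at 12.1, 14.9 and 9.69 in LZ, 18.2, 16.4 and 11.6 in DZ and 11.5, 15.2 and 10.4 in Foxo1-deficient cells, with overlap among all groups (0.30, SE 0.25).

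**Figure D3:**
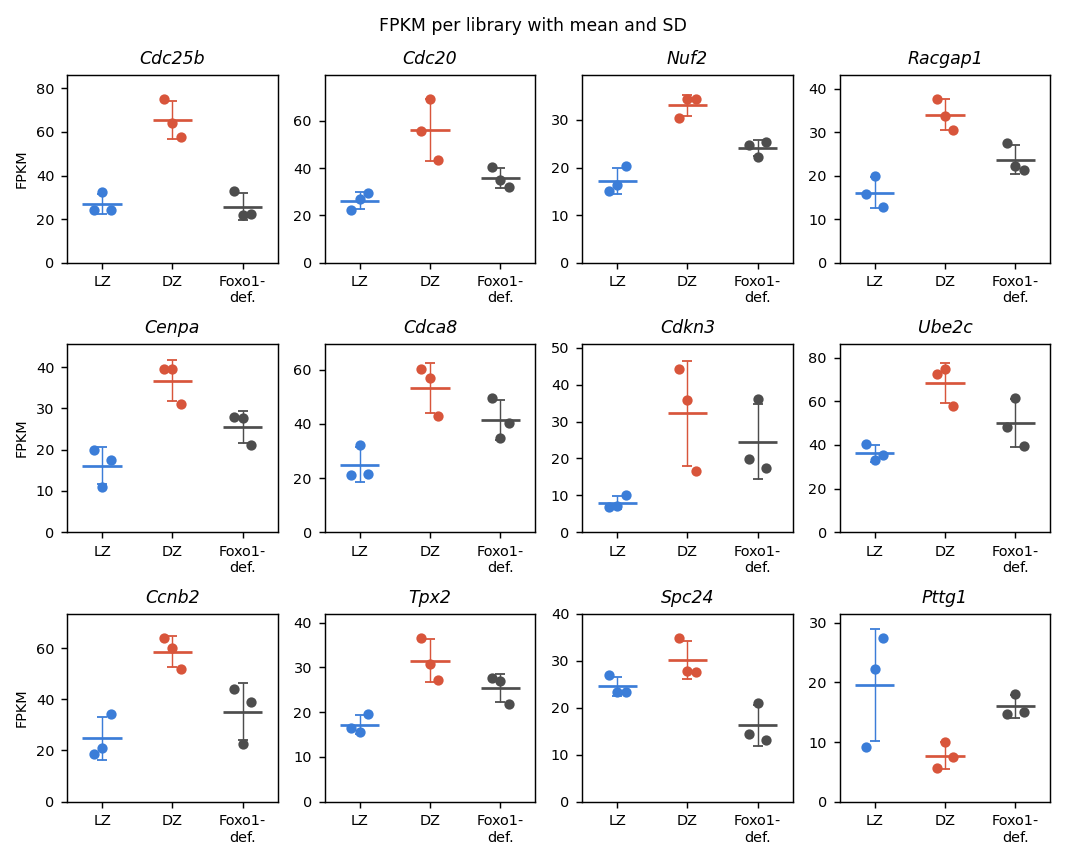
FPKM in each library (points), with the group mean (horizontal line) and SD (error bar), for the 10 genes that rose in DZ against LZ, for Spc24, which like Cdc25b fell in Foxo1-deficient cells against DZ, and for Pttg1; each vertical axis starts at 0. In Cdc25b and Spc24 the Foxo1-deficient mean is under the LZ mean, while in all other panels it is between the zones.

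Against LZ, no mitosis gene passed in the Foxo1-deficient cells, where 0.69% of all tested genes were called higher and 0.87% lower. At an unadjusted p under 0.05, 18 were higher and 1 was lower (all genes 5.79% and 7.64%). All Foxo1-deficient libraries exceeded all LZ libraries for 16 of the 46 (8.12% of all genes), and the reverse held for Spc24 (9.37%). The difference was positive for 37 genes, against 48% of all genes, and negative for 9 (52%), with a median of 0.26 beside -0.02 over all genes. The lowest adjusted p belonged to Cenpf (0.91, limma adjusted p = 0.0629), Cdkn3 (1.45, limma adjusted p = 0.0849) and Mki67 (0.59, limma adjusted p = 0.0941). Cenpf passed when no filter was set, with voom weights and under quantile normalization, where Cdkn3 and Cdca8 passed as well. Cdkn3 also passed without DZ replicate 3. By role, the median difference was highest for the kinetochore and centromere genes (0.51) and the kinesins (0.39), and lowest for the passenger complex (0.06) and the mitotic kinases (0.13).

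Against DZ, Cdc25b and Spc24 fell in the Foxo1-deficient cells, and no mitosis gene rose. Over all tested genes 0.75% were called lower and 2.1% higher. Cdc25b was lower in every Foxo1-deficient library than in any DZ library, with a log2 difference of -1.34 (SE 0.21, limma adjusted p = 0.00663), and it was called in all 17 alternatives. Against LZ its difference was -0.08 (SE 0.21). Spc24 differed from DZ by -0.87 (SE 0.21, limma adjusted p = 0.0490) and from LZ by -0.59 (SE 0.21, limma adjusted p = 0.221), but the DZ difference was called in only 5 of the 17 alternatives. Without LZ replicate 1, 2 or 3, DZ replicate 1, 2 or 3 or Foxo1-deficient replicate 1 or 3 it did not pass. At an unadjusted p under 0.05, 12 mitosis genes were lower than in DZ (4.78% of all genes) and 1, Pttg1, was higher (11.5%). In 15 genes all Foxo1-deficient libraries were below all DZ libraries (5.78% of all genes), and in Pttg1 they were above (17.3%). The difference was positive for 13 genes (61.2% of all genes) and negative for 33 (38.8%). Its median was -0.26, where all tested genes had 0.12. The 4 passenger complex genes were all lower in point estimate, with a median of -0.32, and the kinetochore genes were split 4 to 4 with a median of -0.05.

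**Figure D4:**
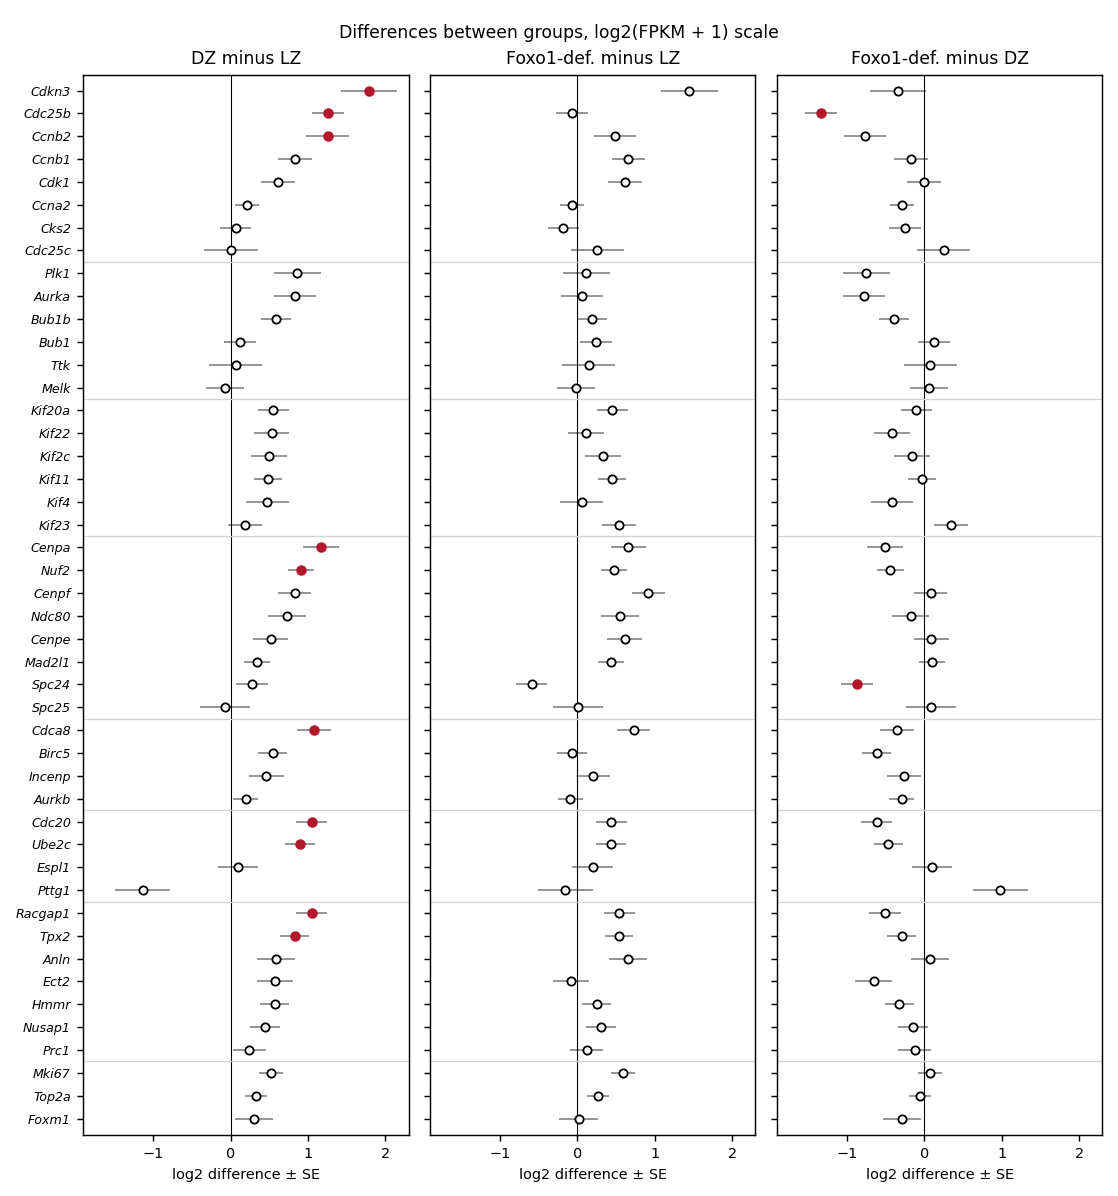
Differences of DZ minus LZ (left), Foxo1-deficient minus LZ (middle) and Foxo1-deficient minus DZ (right) on the log2(FPKM + 1) scale for each gene, with bars of 1 SE; filled points passed the limma test at an adjusted p under 0.05, 10, 0 and 2 genes. On the left 43 of 46 points lie right of 0, in the middle 37, and on the right 13.

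Set beside the midpoint of the zones, the Foxo1-deficient cells had a median difference of 0.06 for the mitosis genes and of 0.06 for all tested genes. The midpoint weighs the LZ and DZ means equally on the log2 scale. It is not a measured germinal center of Foxo1(+/+) cells, since none was sequenced without a zone gate. None of the 46 passed, against 1.26% of all genes called higher and 0.8% lower, and at an unadjusted p under 0.05 there were 3 higher and 2 lower (all genes 8.76% and 5.92%). The difference was positive for 27 (55.8% of all genes) and negative for 19 (44.2%). No mitosis gene had all Foxo1-deficient libraries above all zone libraries (4.67% of all genes), and Spc24 alone had them all below (2.02%). Spc24 (-0.73, limma adjusted p = 0.0653) and Cdc25b (-0.71, limma adjusted p = 0.0775) came closest, and both passed under quantile normalization and median centring. Cdc25b also passed without Foxo1-deficient replicate 1, and Spc24 without Foxo1-deficient replicate 2. The mean of the Foxo1-deficient libraries lay between the zones in 28 genes, 14 of them nearer DZ and 14 nearer LZ. It was above both zones in 11 and below both in 7. The 11 included Cenpe, Cenpf, Spc25 and Mad2l1, 4 of the 8 kinetochore genes, each by less than its standard error. Cenpe exceeded DZ by 0.09 (SE 0.23), Cenpf by 0.08 (SE 0.21) and Mad2l1 by 0.09 (SE 0.17). Spc25 exceeded LZ, its higher zone, by 0.01 (SE 0.32). The 7 were Ccna2, Cks2, Cdc25b, Spc24, Aurkb, Birc5 and Ect2. These positions describe group means and were not tested, and the shares of all tested genes in each position were not computed.

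Averaged over the 46 genes, the level was 4.11, 4.29 and 4.26 on the log2(FPKM + 1) scale in the LZ libraries, 4.84, 4.81 and 4.61 in DZ and 4.60, 4.50 and 4.45 in Foxo1-deficient cells. Taken relative to the mean of all tested genes in the same library, it was 0.95, 0.98 and 1.10 in LZ, 1.69, 1.70 and 1.72 in DZ and 1.35, 1.32 and 1.35 in Foxo1-deficient cells. On both scales the DZ libraries were highest, the LZ libraries lowest, and the Foxo1-deficient libraries between them without overlap, although on the first DZ replicate 3 was nearly level with Foxo1-deficient replicate 1. Single role groups did not all keep this order, and the anaphase mean was 4.55 in both DZ and Foxo1-deficient cells. Foxo1-deficient libraries overlapped DZ alone for the kinesins, the kinetochore genes and the chromosome and transcription genes. For the mitotic kinases and the anaphase genes they overlapped both zones.

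**Figure D5:**
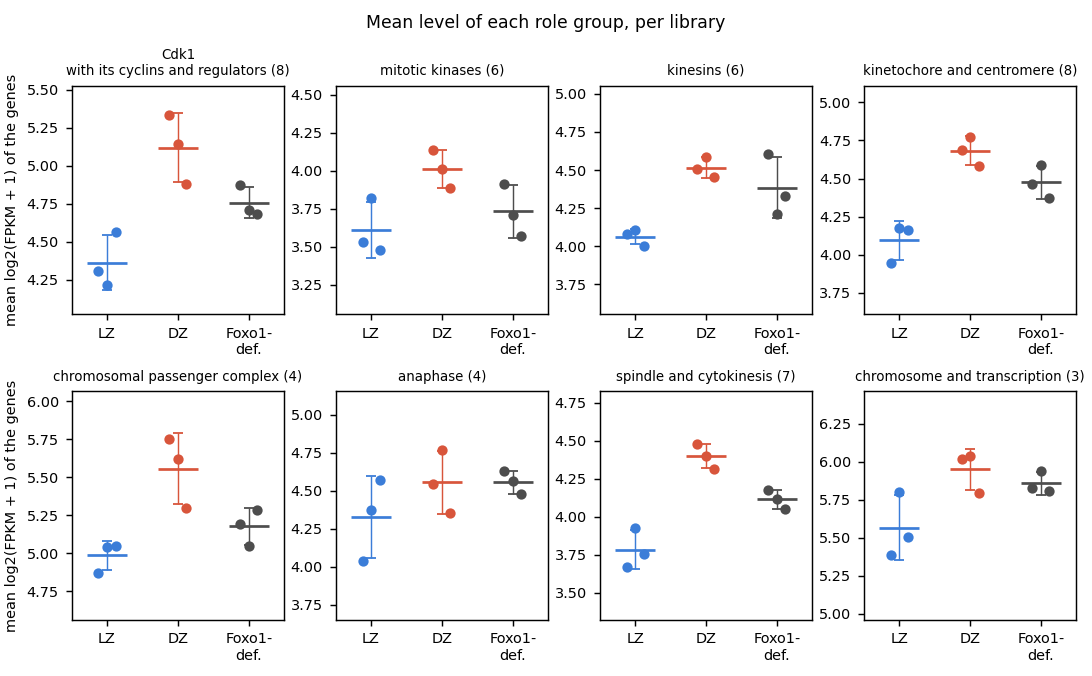
Mean log2(FPKM + 1) of the genes of each role group in each library (points), with the group mean (line) and SD over 3 libraries (bar); the number of genes is in each panel title, all panels span the same range and none starts at 0. Apart from the anaphase genes, DZ means are the highest, and the Foxo1-deficient mean of the kinesins and kinetochore genes is nearer DZ than that of the mitotic kinases.

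The wider mitotic machinery had a smaller median zone difference, a contrast that was not tested. A further list of 117 mitosis genes, among them inner kinetochore, condensin, cohesin and anaphase-promoting complex subunits, had 113 tested genes with a median DZ minus LZ difference of 0.14, beside -0.15 over all tested genes. Of the 113, 19 were higher and 4 lower at an unadjusted p under 0.05 (all genes 3.72% and 11.7%). Every DZ library lay above every LZ library in 19 and below in 8 (all genes 5.16% and 17.1%). The difference was positive for 74 and negative for 39 (all genes 34.8% and 65%). After adjustment 1 was called higher and none lower, a share near the 0.56% of all genes called higher. This gene, Nek2, a centrosome kinase, was at 6.10, 6.82 and 16.0 FPKM in LZ, 26.8, 28.7 and 25.2 in DZ and 26.3, 21.9 and 13.8 in Foxo1-deficient cells (1.51, SE 0.33, limma adjusted p = 0.0456). The core subunits and partners of the anaphase-promoting complex, 15 genes, had a median of -0.03 and none passed. Against DZ 1 of the 113, Ube2s, which extends ubiquitin chains for that complex, fell in Foxo1-deficient cells, a share near the 0.75% of all genes called lower. Ube2s was at 75.1, 68.6 and 83.7 in LZ, 112.6, 114.8 and 92.3 in DZ and 65.9, 76.3 and 58.5 in Foxo1-deficient cells (-0.67, SE 0.16, limma adjusted p = 0.0490). None of the 113 passed against LZ, where the median was 0.08. A CHR element occurred in 45.54% of 101 windows of this wider list and in 15.38% of the 39 windows of S phase genes.

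The 43 S phase genes had a median DZ minus LZ difference of 0.13, and their Foxo1-deficient minus DZ median was -0.28, close to the -0.26 of the mitosis genes. Against LZ their Foxo1-deficient median was -0.09, where the mitosis genes had 0.26, and against the midpoint it was -0.17, beside 0.06. Of the 43, 1 was called higher in DZ minus LZ (0.56% of all genes) and none lower, 2 were called lower against DZ (0.75% of all genes) and none higher, and none passed against LZ or the midpoint. Mcm6, a subunit of the replicative helicase, was at 89.1, 97.5 and 104.6 FPKM in LZ, 122.1, 124.1 and 108.2 in DZ and 84.9, 75.1 and 72.6 in Foxo1-deficient cells. All Foxo1-deficient libraries were below all zone libraries, and Mcm6 fell against DZ (-0.60, SE 0.14, limma adjusted p = 0.0396). The difference between S phase and mitosis genes was not tested.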

How the data were processed

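Per the labels' protocols, TRIzol RNA from about 10000 sorted cells per library went into NEBNext Ultra libraries. TopHat2 2.0.8 and Cufflinks 2.1.1, with build mm9, are listed in the submitters' processing notes. Per the file headers, the authors deposited 1 gene table per library with FPKM, the bounds of its confidence interval (other values, used only to estimate fragments as if they were 2 SD of a Poisson count) and a status. Strand use, masks and the scaling total are not given in the sources used here. Each table held 23700 entries, of which 716 entries of 250 repeated symbols and 7 genes with a failed estimate were left out.

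The test was limma 3.58.1 (R 4.3.3) with an intensity trend on log2(FPKM + 1), a scale that understates changes of low genes, over the 10004 genes that reached an FPKM of 1 in 3 or more of 9 libraries. All libraries entered 1 fit without a replicate block. Adjusted p-values are two-sided Benjamini-Hochberg values over these genes, with a threshold of 0.05. A permutation test of 3 against 3 libraries cannot go below p = 0.1. The fit was tested on simulated data. The 17 alternatives changed the pseudocount (0.1 or 5), filter, scaling, block, weights or the libraries used. The alternative with voom weights also replaced log2(FPKM + 1) by log2 values of the estimated fragments, scaled by relative depth. It used no intensity trend. Because the genes and lists were chosen with earlier results of these data known, their counts are descriptions and no list was tested. Named were the genes that passed, apart from a result among the S phase genes that is not reported here, and, in each role, those with the highest level and the largest and smallest zone difference. Promoter sequences are RefSeq's on GRCm38.p6, while gene coordinates are the files' on mm9. Mis18a, Ska2, Ska3 and Bora of the wider list were not matched.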

Additional observations from a re-analysis of the deposited data

How the results depend on the processing

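Over the alternatives run, no called gene changed direction. Mitosis genes called higher in DZ against LZ numbered 10 in the analysis reported and 8 with a pseudocount of 0.1, 10 with 5, 12 with quantile normalization, 15 with median centring and 11 with voom weights, but 3 with no filter (all genes above 0 in any library) and 2 when the fit held only the groups compared. Leaving out 1 library gave 0 to 10 higher and 0 to 1 lower. Their median of 0.53 became 0.63 with quantile normalization and 0.72 with median centring, and 0.44 to 0.55 without 1 library. These scalings moved the median of all genes from -0.15 to 0.01 and 0.04, and the share of all called genes that were higher from 28.9% to 42.8% and 56.8%. Against LZ, the Foxo1-deficient cells had 0 mitosis genes called higher, 1 with no filter, 3 with quantile normalization, 1 with voom weights and 0 to 1 without 1 library, with 0 lower throughout and a median of 0.21 to 0.34. Against DZ, 2 were called lower, 1 with a pseudocount of 0.1, no filter or only the groups compared and 6 with median centring (Aurka, Birc5, Cdc20 and Racgap1 added), and 1 to 2 without 1 library, with 0 higher. The median of -0.26 became -0.43 with median centring and -0.33 to -0.17 without 1 library. The share of all called genes that were higher went from 73.7% to 60.8% with quantile normalization and 44.6% with median centring. Against the midpoint, 0 were called lower, 2 with quantile normalization, 2 with median centring and 0 to 1 without 1 library, with 0 higher and a median of 0.01 to 0.09. All genes called, higher and lower together, numbered 194 for DZ minus LZ. This became 109 with no filter, 122 with only the groups compared, 208 with quantile normalization and 234 with median centring. For Foxo1-deficient minus LZ there were 156, 99 with a pseudocount of 0.1 and 58 with only the groups compared. Quantile normalization gave 213 there and median centring 209. Against DZ there were 285, 360 with quantile normalization and 406 with median centring, so calls over all genes increased as well. Against the midpoint there were 206, 312 with quantile normalization and 314 with median centring. Replicate numbers are shared by the groups, and the deviations of same-numbered libraries correlated only between -0.07 and 0.08. Such a correlation cannot settle whether same-numbered libraries came from the same animals, so pairing stays possible. With the replicate block, 8 mitosis genes were called higher in DZ (Ccnb2 and Tpx2 were lost) and 1 lower against DZ (Spc24 was lost). The causes of these shifts were not tested. Cdc25c and Pttg1 rest on the fewest estimated fragments, 20.8 and 23.4 in their lowest libraries, and the part of depth in their results was not tested.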
